A study of Mus musculus with 12 samples.

Results

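RNA sequencing was used to describe what LPS left in BV2 cells that had first received a low dose of 6-shogaol. BV2 is an immortalized mouse microglial line, and LPS is the endotoxin of Gram-negative bacteria. The comparison takes the 4 libraries of 2 groups, from the 12 libraries and 6 groups of the series. The first group received 6-shogaol at 10 µM and then LPS at 100 ng/mL 1 h later, and has 2 libraries. The untreated group, also of 2 libraries, received neither. The 2 libraries of cells that received LPS alone at the same concentration were set beside them for the counts over all genes and for part of the lists and genes. Per the labels, all cells were moved to serum-free medium 24 h after seeding and kept there for at least 4 h before any compound. The time from LPS to harvest and the solvent of the compound are not given in the sources used here. Whether the replicates came from separate cultures is not stated in the labels. P-values thus measure only how the 12 libraries of the series vary within their groups, which may be technical variation. Because the first group differs from untreated cells in both LPS and 6-shogaol, the contributions of these 2 agents cannot be told apart within the comparison, and no cells given 6-shogaol without LPS were analysed here.

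LPS is sensed by TLR4 with its partners CD14 and MD-2. One arm of the signal runs through MYD88 to NF-kB and induces cytokines, chemokines and the inhibitors that later end the response. The other runs through TRIF to IRF3, interferon β and the STAT factors that drive antiviral genes. 6-Shogaol is a pungent phenol of ginger with an α,β-unsaturated ketone, a group that can react with cysteine thiols such as those of KEAP1, the protein that holds the antioxidant regulator NRF2 in check.

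Promoter sequences of the gene with the highest increase that the RefSeq table holds, in each of 5 classes, are printed because NF-kB, the interferon factors and NRF2 each bind a known DNA motif. Each is the 250 bases before the start that RefSeq annotates (GRCm38.p6), 5′ to 3′ on the gene's strand, with motif matches in capitals. The motifs were GAAANNGAA for the interferon-stimulated response element, TGACNNNGC for the antioxidant response element, and the κB consensus for NF-kB, on both strands. The genes are the chemokine Cxcl10 (chr5:92348890-92349139, minus strand), the acute-phase gene Saa3 (chr7:46715677-46715926, minus strand), the antiviral gene Rsad2 (chr12:26456453-26456702, minus strand), the complement protease gene C1s1 (chr6:124542360-124542609, minus strand) and the cystine transporter gene Slc7a11 (chr3:50443614-50443863, minus strand). Cfb, Ccl5, Zbp1 and Rtp4 are named only.
Cxcl10: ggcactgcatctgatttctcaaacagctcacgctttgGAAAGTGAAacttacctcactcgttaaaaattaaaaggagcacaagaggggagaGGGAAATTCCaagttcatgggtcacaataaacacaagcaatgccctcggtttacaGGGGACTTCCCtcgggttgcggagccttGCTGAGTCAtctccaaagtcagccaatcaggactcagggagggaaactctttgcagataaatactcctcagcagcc
Saa3: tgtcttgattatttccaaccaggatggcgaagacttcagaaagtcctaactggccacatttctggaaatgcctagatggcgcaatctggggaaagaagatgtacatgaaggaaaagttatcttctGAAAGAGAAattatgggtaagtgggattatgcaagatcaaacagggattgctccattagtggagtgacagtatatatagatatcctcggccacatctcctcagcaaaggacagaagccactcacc
Rsad2: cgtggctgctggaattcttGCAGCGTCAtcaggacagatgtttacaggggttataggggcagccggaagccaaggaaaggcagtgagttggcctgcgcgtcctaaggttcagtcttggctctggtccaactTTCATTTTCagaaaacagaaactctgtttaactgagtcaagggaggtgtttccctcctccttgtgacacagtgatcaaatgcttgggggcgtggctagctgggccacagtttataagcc
C1s1: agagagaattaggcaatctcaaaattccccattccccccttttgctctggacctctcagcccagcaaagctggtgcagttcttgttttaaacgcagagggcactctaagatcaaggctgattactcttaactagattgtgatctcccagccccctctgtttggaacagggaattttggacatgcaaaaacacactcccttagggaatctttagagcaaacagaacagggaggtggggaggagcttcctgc
Slc7a11: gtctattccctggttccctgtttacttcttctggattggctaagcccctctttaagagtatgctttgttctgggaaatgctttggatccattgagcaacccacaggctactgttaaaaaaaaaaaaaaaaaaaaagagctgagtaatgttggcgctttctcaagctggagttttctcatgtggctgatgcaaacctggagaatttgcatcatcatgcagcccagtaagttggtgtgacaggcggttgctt
The capitals in Cxcl10 are, from the left, an interferon-stimulated response element that starts 213 bases before the gene start, a κB match at 159 bases, overlapping κB matches on both strands at 104 and 103 bases, and an antioxidant response element on the reverse strand at 76 bases. Saa3 has an interferon-stimulated response element at 125 bases. Rsad2 has an antioxidant response element at 231 bases and an interferon-stimulated response element at 119 bases, both on the reverse strand. No match lies in the C1s1 or Slc7a11 stretch.

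Motif shares were counted over the whole 300-base windows of the table, which run to 50 bases past the start. Of the antiviral genes that rose, 17 had a window and 9 of these (52.9%) held the interferon-stimulated response element, which 9.76% of all 27025 windows and 8.62% of the windows of 9428 tested genes held. The κB motif was in 6 of 10 windows (60.0%) of NF-kB pathway genes that rose, against 12.1% of tested genes and 9.55% of all. The antioxidant response element was in 7 of 12 windows (58.3%) of NRF2 targets that rose, against 17.1% of tested genes and 14.0% of all. Within the last 200 bases before the start the counts were 6 of 17, 5 of 10 and 4 of 12, against 5.66%, 8.81% and 12.2% of tested genes. In the other lists searched, of genes that rose, the whole windows held the interferon-stimulated element in 0 of 6 cytokine, 2 of 3 chemokine and 1 of 6 acute-phase genes, and the κB motif in 2 of 6, 2 of 3 and 0 of 6. A match describes these letters and is not a binding site, and no test was made. The lists were made of genes of these pathways, and list members that did not rise were not counted apart. The shares thus do not separate genes that rose from the rest of their list.

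Library totals over the series ran from 16534960 to 21179867 expected counts, with 15345 to 16015 genes detected per library, and 12705 genes were tested. The 2 untreated libraries stood further apart than the 2 of either other group. Of the tested genes, 823 (6.48%) differed by 0.5 or more on the log2 scale between them, against 237 (1.87%) between the 6-shogaol plus LPS libraries and 255 (2.01%) between the LPS libraries. Mean fragment lengths were 247.0 and 247.9 bases with 6-shogaol and LPS, 237.0 and 223.0 with LPS alone, and 226.7 and 247.8 in untreated cells, and the part of fragment length in the results was examined as a covariate in the fit, with 1020 calls in place of 1113 against untreated cells and 48 in place of 81 against LPS alone. Defining microglial markers checked the labelled cell type: 9 of 16 reached 1 TPM (a level corrected for transcript length) in all 4 libraries, among them Spi1, Csf1r and Trem2. Fcrls, Sall1 and Gpr34 were at 0 in all 4, and P2ry12, P2ry13, Cx3cr1 and Siglech stayed under 1 TPM. The summed microglial level was 1300 and 1280 TPM with 6-shogaol and LPS and 1360 and 1530 TPM in untreated cells. Its largest part was Tyrobp, at 746 and 692 TPM with 6-shogaol and LPS and 892 and 980 TPM in untreated cells. Csf1r went the other way, at 161 and 173 against 85.4 and 116 TPM, so the sum does not describe the markers as a set. Neuronal markers summed to at most 0.06 TPM, and 7 of 9 were at 0 in all 4 libraries. Astrocyte markers summed to 4.51 and 6.17 TPM with 6-shogaol and LPS, against 2.24 and 2.42 TPM in untreated cells, and nearly all of that was the gap-junction gene Gja1, while 3 of the 8, Aqp4, Sox9 and Slc1a3, were at 0 in all 4 libraries and Gfap was at 0 in 3. Oligodendrocyte markers summed to 8.87 and 8.29 TPM with 6-shogaol and LPS, against 6.50 and 9.68 TPM in untreated cells, mostly Cnp, and 5 of the 9 were at 0 in all 4. Fibroblast and endothelial markers summed to 32.6 and 35.5 TPM with 6-shogaol and LPS, against 28.3 and 36.4 TPM in untreated cells. Most of that was Kdr, a VEGF receptor, with Vwf the 1 other above 1 TPM, and 2 of 9, Col1a2 and Cldn5, were at 0. Lymphocyte and neutrophil markers summed to 15.0 and 10.3 TPM with 6-shogaol and LPS, against 13.6 and 18.9 TPM in untreated cells, nearly all of it S100a8, while 10 of 14, among them Ly6g and Cd3e, were at 0 in all 4. The part of these transcripts in the results was not tested.

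The cells given 6-shogaol before LPS still carried a broad response. Relative to untreated cells, 747 genes were higher (5.88% of those tested) and 366 were lower (2.88%), together 8.76% at an adjusted p under 0.05. The increases were the larger changes: 237 genes rose by a log2 fold change of at least 1 and 62 fell by as much, and 87 and 20 passed 2. The median over all tested genes was -0.03. LPS alone, measured against the same untreated libraries, gave 973 higher (7.66%) and 528 lower genes (4.16%), with 370 and 79 past a log2 fold change of 1. With library totals in place of TMM scaling, the split for LPS alone was 785 higher and 688 lower. Tested directly against LPS alone, 81 genes (0.638%) differed with 6-shogaol, 73 lower (0.575%) and 8 higher (0.063%). Of the 747 genes above untreated cells, 54 were also below LPS alone, 2 were above it and 691 were not called against it. These comparisons share libraries, and a gene not called against LPS alone is not shown to be equal to it, since 95% intervals reached 0.293 to each side at the median gene. The 81 calls against LPS alone were 30 without replicate 1 and 18 without replicate 2 of 6-shogaol plus LPS, 44 and 30 without LPS replicates 1 and 2, and 175 and 164 without untreated replicates 1 and 2. Differences from LPS alone that a left-out library ended are named beside each gene, with the adjusted p in brackets. The count against untreated cells depended on each of the 4 libraries. It was 547 without replicate 1 and 499 without replicate 2 of 6-shogaol plus LPS, and 674 without replicate 1 and 2179 without replicate 2 of the untreated cells. In the fit of all libraries and all 4 of these fits, 367 genes were higher and 46 were lower.

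**Figure D1:**
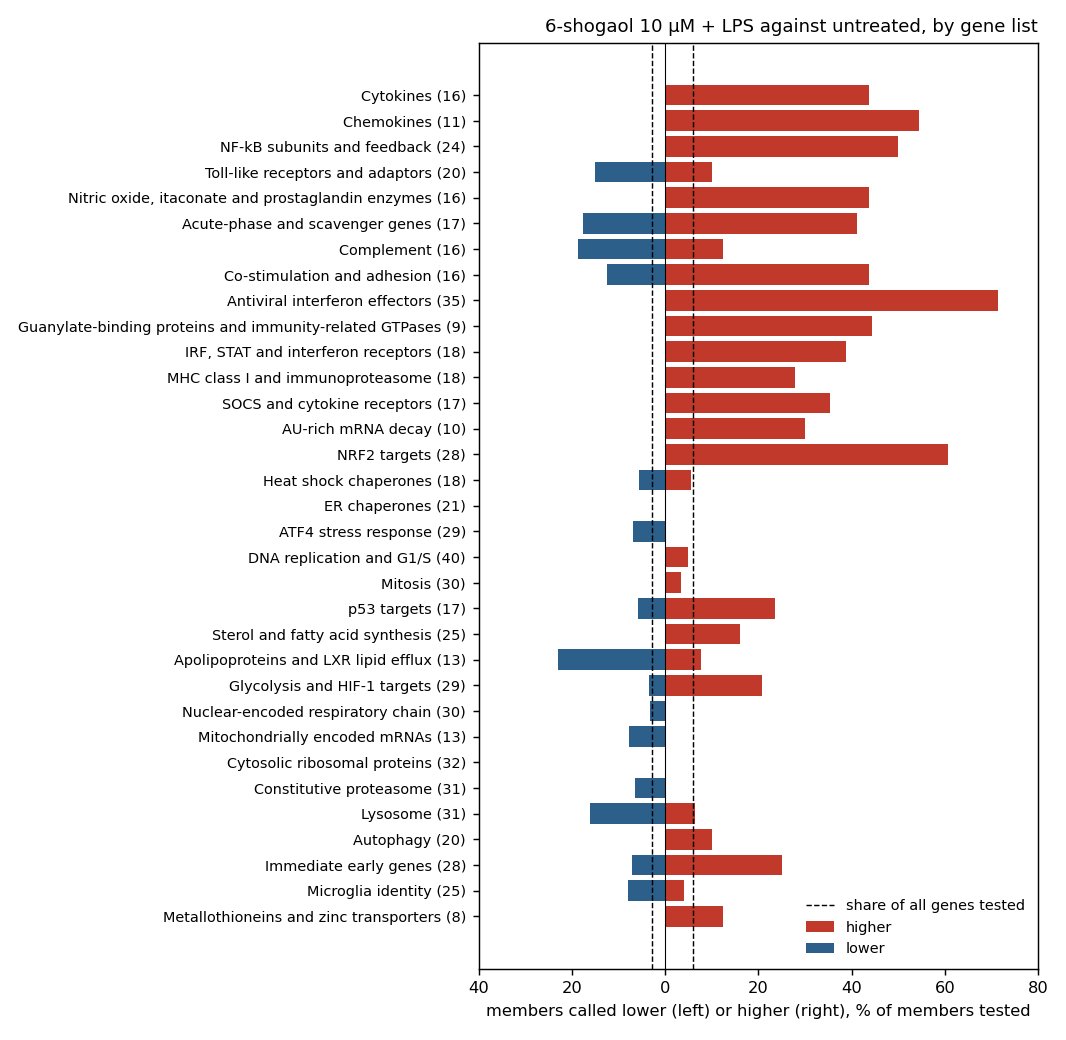
Share of tested members of each gene list that were called higher (right) or lower (left) with 10 µM 6-shogaol and LPS than in untreated cells, in percent; the number tested stands in brackets and dashed lines mark the share over all tested genes, 5.88% and 2.88%. Antiviral interferon effectors (25 of 35) and NRF2 targets (17 of 28) reach furthest to the right, and no ER chaperone or cytosolic ribosomal protein gene was called with all libraries in the fit.

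Part of the cytokine genes stayed above untreated cells. Of 16 cytokine genes that passed the filter on low counts (22 listed), 7 were higher than in untreated cells and none lower, with a median log2 fold change of 0.68. LPS alone raised 8 of the 16, and 4 were lower with 6-shogaol than with LPS alone. Il6 (ENSMUSG00000025746, chromosome 5, 30013114 to 30019981) encodes the cytokine that drives the acute-phase response. It had 32.9 and 25.5 CPM with 6-shogaol and LPS, 212 and 194 with LPS alone, and 9.75 and 6.33 in untreated cells, where CPM are TMM-scaled counts relative to library size, and positions here and below are on GRCm38. The 3 pairs do not overlap, and in CPM the 6-shogaol pair lies nearer the untreated pair than the LPS pair. Its log2 fold change over untreated was 1.86 (SE 0.18, adjusted p = 5.27e-06) and over LPS alone -2.80 (95% interval -3.15 to -2.45, adjusted p = 2.04e-07). Tnf, the early cytokine of macrophages (ENSMUSG00000024401, chromosome 17, 35199381 to 35202007), had 89.2 and 96.9 CPM with 6-shogaol and LPS, 144 and 154 with LPS alone, and 16.4 and 15.6 in untreated cells. Its log2 fold change was 2.54 (SE 0.10, adjusted p = 1.30e-10) over untreated and -0.68 over LPS alone (adjusted p = 0.0011). Its call against LPS alone was lost without 6-shogaol plus LPS replicate 1 (0.0503).

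An agonist and the antagonist of the interleukin 1 receptor rose. Il1a, an alarmin that signals through the IL-1 receptor, had 56.9 and 60.2 CPM with 6-shogaol and LPS, against 20.4 and 14.3 in untreated cells, a log2 fold change of 1.76 (adjusted p = 1.67e-06). Il1rn, the antagonist of the same receptor, had 30.0 and 28.2 against 14.2 and 9.40 CPM (log2 fold change 1.31, adjusted p = 3.21e-05) and was -1.28 on the log2 scale relative to LPS alone (adjusted p = 1.83e-04). The inflammasome substrate Il1b was not called, at 0.528 and 0.968 CPM with 6-shogaol and LPS and 0.565 and 0.651 in untreated cells (log2 fold change 0.32, adjusted p = 0.729). Csf1, a growth factor of microglia, stood at 0.52 (adjusted p = 0.00568), a call lost without 6-shogaol plus LPS replicate 2 (0.0917) or untreated replicate 1 (0.05). Lta, lymphotoxin α, had 47 counts in the 6-shogaol plus LPS libraries and 3 in the untreated ones, a ratio of 17.0 with a 95% counting interval of 5.48 to 85.5. Csf3, the granulocyte growth factor, stood at 2.35 and 1.21 against 0.154 and 0.326 CPM, and its call was lost without 6-shogaol plus LPS replicate 1 (0.0508). Lta was also called lower than with LPS alone (-1.99, adjusted p = 0.00252), a call lost without 6-shogaol plus LPS replicate 2 (0.127).

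Chemokine genes also stayed above untreated cells in part. Of 11 tested (18 listed), 6 were higher than in untreated cells, none lower, and the median log2 fold change was 1.24. All 6 were higher in each of the 5 fits, and 1 chemokine gene was lower in the fit without untreated replicate 2. LPS alone raised 8, and 6 of the 11 were lower with 6-shogaol than with LPS alone. Ccl5, which attracts T cells and monocytes (ENSMUSG00000035042, chromosome 11, 83525778 to 83530518), had 73.0 and 69.5 CPM with 6-shogaol and LPS, 246 and 289 with LPS alone, and 1.90 and 1.12 in untreated cells. Cxcl10, an interferon-induced attractant of T cells (ENSMUSG00000034855, chromosome 5, 92346638 to 92348889), had 83.2 and 82.1 CPM with 6-shogaol and LPS, 245 and 257 with LPS alone, and 1.80 and 1.95 in untreated cells. In both the 3 groups are apart, with 6-shogaol plus LPS between the others. The log2 fold changes over untreated were 5.57 (SE 0.27, adjusted p = 4.60e-09) and 5.45 (SE 0.16, adjusted p = 5.47e-12), and those over LPS alone were -1.91 (adjusted p = 9.21e-05) and -1.60 (adjusted p = 1.74e-06). The neutrophil attractant Cxcl2, a classical NF-kB target, had 41.1 and 38.5 CPM with 6-shogaol and LPS, 63.1 and 68.8 with LPS alone, and 1.90 and 1.12 in untreated cells. Its log2 fold change was 4.73 over untreated (adjusted p = 1.30e-10) and -0.73 over LPS alone (adjusted p = 0.0101), and the call against LPS alone was lost without 6-shogaol plus LPS replicate 1 (0.105) or 2 (0.249) or LPS replicate 1 (0.0563) or 2 (0.188). Ccl4 and Ccl2, attractants of monocytes, rose by 2.36 and 1.68 over untreated and were at -0.96 and -1.23 relative to LPS alone (adjusted p = 0.00332 and 0.0012). For Ccl4 that call was lost without 6-shogaol plus LPS replicate 1 (0.112) or 2 (0.0573) or LPS replicate 2 (0.0686). Ccl3 rose by 1.24, and its value of -0.76 relative to LPS alone did not pass (adjusted p = 0.0879). Ccl9 was not called, with 0.645 and 0.29 CPM against 1.75 and 0.698 CPM in untreated cells.

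**Figure D2:**
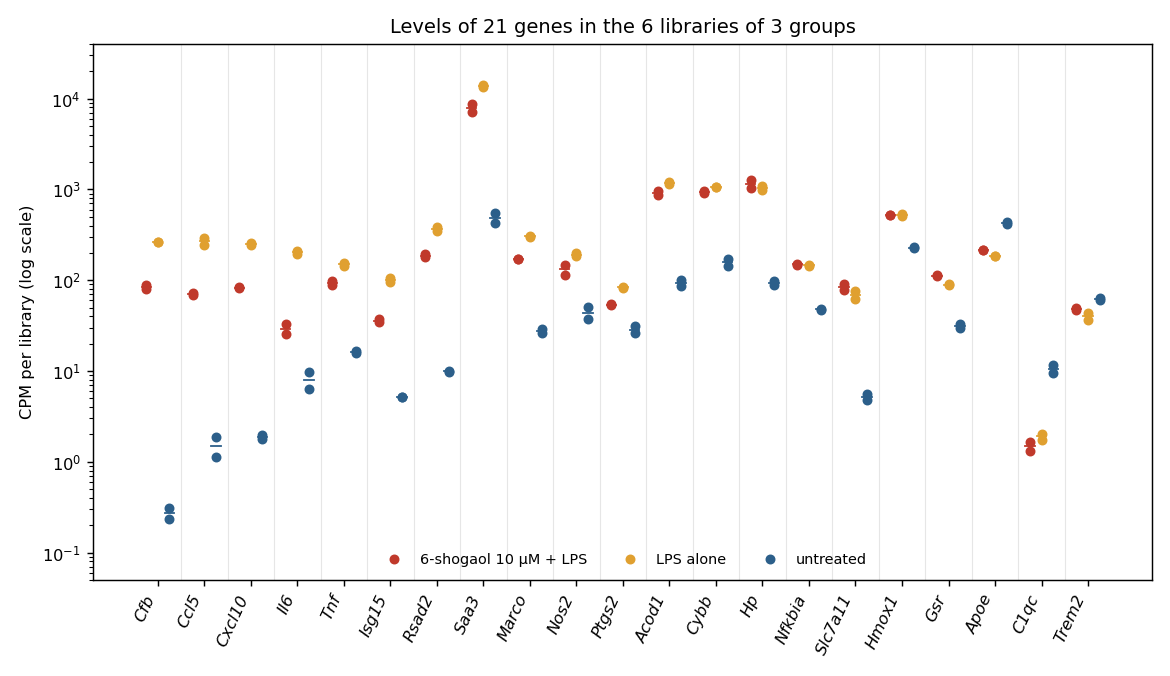
Level of 21 genes in CPM (counts scaled by library size) on a log axis, in 2 libraries of 6-shogaol 10 µM plus LPS (left in each column), LPS alone (middle) and untreated cells (right); each point is a library and each dash a group mean. Ccl5, Cxcl10 and Il6 lie between LPS and untreated, Nfkbia and Hmox1 lie at the level of LPS alone, and Apoe and C1qc lie under the untreated level.

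The antiviral interferon program held the highest share of called members of the 33 lists plotted. Of 35 effector genes tested (37 listed), 25 were higher than in untreated cells, none lower, and the median log2 fold change was 1.66. It was 2.08 with LPS alone, which raised 31 of the 35. Tested directly, 15 were lower with 6-shogaol than with LPS alone and none higher. The count of higher genes was 23 to 26 with 1 of the 4 libraries left out, and 22 genes were higher in all 5 fits. Rsad2, which encodes viperin (ENSMUSG00000020641, chromosome 12, 26442746 to 26456452), had 192 and 181 CPM with 6-shogaol and LPS, 350.1 and 390.5 with LPS alone, and 9.80 and 10.0 in untreated cells. Its groups do not overlap, with log2 fold changes of 4.23 over untreated (SE 0.11, adjusted p = 1.94e-12) and -0.99 over LPS alone (adjusted p = 5.68e-05). Isg15, a ubiquitin-like protein that is joined to others during infection, had 37.0 and 34.6 CPM with 6-shogaol and LPS, 105 and 96.1 with LPS alone, and 5.18 and 5.12 in untreated cells. Untreated libraries are lowest and LPS libraries highest, and the log2 fold changes were 2.79 over untreated (adjusted p = 8.18e-09) and -1.49 over LPS alone (adjusted p = 2.38e-05).

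RNA-sensing and RNA-binding effectors were among the higher members. Ifit1, which binds foreign 5′ ends of RNA, had 6.80 and 6.53 CPM with 6-shogaol and LPS against 0.821 and 0.744 in untreated cells (log2 fold change 3.08, adjusted p = 8.83e-07). Oasl1 and Oasl2, relatives of the oligoadenylate synthetases, rose by 2.81 and 2.82 (adjusted p = 3.86e-10 and 2.72e-08). Cmpk2, a mitochondrial nucleotide kinase that neighbours Rsad2 in the genome, rose by 3.37 (adjusted p = 3.75e-08). All 4 were also lower than with LPS alone, at -1.39, -1.09, -1.18 and -0.96 on the log2 scale. For Cmpk2 this call was lost without 6-shogaol plus LPS replicate 1 (0.138) or LPS replicate 2 (0.0712). Other members that stayed up were not called against LPS alone: Ifih1, the RNA sensor MDA5, rose by 1.83 over untreated (difference from LPS -0.49, adjusted p = 0.116), and Parp14, a mono-ADP-ribosyltransferase, rose by 1.88 (difference -0.18, adjusted p = 0.569). Zbp1, a sensor of Z-form nucleic acid, had 2.93 and 2.61 CPM against 0.103 and 0.093 CPM in untreated cells, and rose by 4.73 (adjusted p = 5.91e-07). It was lower than with LPS alone by the fit of all libraries (-1.36, adjusted p = 0.00186), but not without 6-shogaol plus LPS replicate 2 (0.088). Rtp4 had 66 counts in the 6-shogaol plus LPS libraries and 2 in the untreated ones, a ratio of 35.9 with a counting interval of 9.54 to 302. Ifitm3, a membrane protein that blocks viral entry, had 1.64 and 1.16 CPM with 6-shogaol and LPS, 5.03 and 6.43 with LPS alone and 0.565 and 0.186 in untreated cells. Its call over untreated was lost without 6-shogaol plus LPS replicate 1 (0.178) or 2 (0.0598) or untreated replicate 2 (0.0984), and that over LPS alone (-2.05, adjusted p = 0.00583) without 6-shogaol plus LPS replicate 1 (0.0543) or 2 (0.201) or LPS replicate 2 (0.129). The list holds 10 genes not called against untreated, among them Bst2 (-0.03) and Eif2ak2, the kinase PKR (0.32).

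Among guanylate-binding proteins and immunity-related GTPases, which attack vacuoles of intracellular microbes, 4 of 9 tested genes (17 listed) were higher and none lower. All 4 were Gbp genes. Gbp2 had 6.28 and 8.03 CPM with 6-shogaol and LPS, 20.5 and 16.4 with LPS alone, and 0.0513 and 0 in untreated cells, or 273 counts against 1, a ratio of 297 with a 95% counting interval of 52.8 to 11800. Gbp3 and Gbp7 rose by 3.25 and 3.56 (adjusted p = 2.61e-06 and 7.39e-05), and Gbp2 and Gbp3 were lower than with LPS alone (-1.35 and -1.21, adjusted p = 7.70e-04 and 0.00528). For Gbp3 that call was lost without 6-shogaol plus LPS replicate 1 (0.0543) or 2 (0.194) or LPS replicate 2 (0.104). The call of Gbp9 over untreated was lost without 6-shogaol plus LPS replicate 1 (0.306), untreated replicate 1 (0.271) or LPS replicate 1 (0.0558) or 2 (0.0566). The GTPases Irgm1, Irgm2 and Igtp had log2 fold changes of 0.06, 0.01 and 0.03 and were not called.

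Of 18 genes for IRF and STAT factors and interferon receptors (20 listed), 7 were higher than in untreated cells and none lower. The count was 4 without replicate 1 and 2 without replicate 2 of 6-shogaol plus LPS, 4 without untreated replicate 1 and 7 without untreated replicate 2. Irf7, the master factor of interferon α genes, had 13.8 and 12.3 CPM with 6-shogaol and LPS, 28.5 and 38.0 with LPS alone, and 2.36 and 3.07 in untreated cells. It rose by 2.25 over untreated (adjusted p = 1.06e-05) and was the 1 member lower than with LPS alone, at -1.35 (adjusted p = 0.00163), a call lost without 6-shogaol plus LPS replicate 2 (0.088). Stat3 rose by 0.48 (adjusted p = 0.00558), with a difference from LPS alone of 0.04 (95% interval -0.17 to 0.24). The call of Stat3 over untreated was lost without 6-shogaol plus LPS replicate 2 (0.0645). Irf8, a lineage factor of microglia, was not called (-0.13).

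Class I antigen presentation rose in part. Of 18 genes (20 listed), 5 were higher, against 10 with LPS alone, and none was called between the 2 LPS groups. Tapbp, tapasin, which loads peptide onto class I molecules, had 180.4 and 168 CPM with 6-shogaol and LPS and 72.9 and 93.7 CPM in untreated cells (log2 fold change 1.06, adjusted p = 3.96e-04). H2-K1, a class I heavy chain, stood at 0.35 (adjusted p = 0.0416), a call lost without 6-shogaol plus LPS replicate 1 (0.178) or 2 (0.152), untreated replicate 1 (0.172) or LPS replicate 1 (0.067) or 2 (0.0666). The light chain B2m, at -0.02, was not called. With 1 library left out, 1, 3, 2 and 6 of the list were higher, without 6-shogaol plus LPS replicates 1 and 2 and untreated replicates 1 and 2 in that order. Class I genes resemble each other in sequence, so their reads may be shared between copies.

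Of 24 genes for NF-kB subunits and their feedback inhibitors, 12 were higher than in untreated cells, none lower, with a median log2 fold change of 0.51. LPS alone raised 14, with a median of 0.56, and 1 was lower with 6-shogaol than with LPS alone. That gene was Traf1, an adaptor of TNF receptors, with 17.2 and 16.4 CPM with 6-shogaol and LPS, 40.6 and 40.1 with LPS alone, and 1.23 and 0.977 in untreated cells. Its log2 fold change was 3.92 over untreated (adjusted p = 1.43e-09) and -1.27 over LPS alone (adjusted p = 9.20e-05). No inhibitor of the list was called against LPS alone. Nfkbia, IκBα, which holds NF-kB in the cytoplasm, had 149.9 and 148 CPM with 6-shogaol and LPS, 148 and 144 with LPS alone, and 48.3 and 47.2 in untreated cells. Both LPS groups lie above untreated, with 1.64 on the log2 scale over untreated (SE 0.10, adjusted p = 2.50e-08) and 0.03 over LPS alone (95% interval -0.17 to 0.24). Tnfaip3, the ubiquitin-editing enzyme A20, rose by 1.21 (adjusted p = 5.65e-07; -0.09 over LPS alone, -0.29 to 0.11). Birc3, an inhibitor of apoptosis, rose by 1.18 (adjusted p = 1.19e-06), Ikbke, a kinase of the TRIF arm, by 1.16 (adjusted p = 1.42e-06), and Nfkbie by 1.05 (adjusted p = 3.08e-04). Of the subunits, Nfkb1 stood at 0.57 (adjusted p = 0.00635), a call lost without 6-shogaol plus LPS replicate 2 (0.0601) or untreated replicate 1 (0.0538), and Rela (0.12), Rel (0.19) and Relb (0.36) were not called. With 1 library left out, 9 to 15 members were higher, and 9 in all 5 fits.

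Receptors of the pathway moved in both directions. Of 20 Toll-like receptors and adaptors, 2 were higher and 3 lower than in untreated cells, while LPS alone gave 3 higher and 0 lower. Tlr2, the receptor for bacterial lipopeptides, rose by 0.81 (adjusted p = 1.96e-04), with 250 and 256 CPM against 142 and 146 CPM in untreated cells. Tlr4 itself was not called, at 60.8 and 53.1 CPM with 6-shogaol and LPS, 61.5 and 57.2 with LPS alone and 56.0 and 52.0 in untreated cells, and neither was Ly96, the MD-2 subunit (0.09). Cd14, the co-receptor that hands LPS to TLR4, went lower than in both other groups, with 84.8 and 82.4 CPM with 6-shogaol and LPS, 144 and 144 with LPS alone, and 141 and 115 in untreated cells. Its log2 fold change was -0.62 over untreated (adjusted p = 0.00362) and -0.78 over LPS alone (adjusted p = 0.00397), and LPS alone against untreated gave 0.16 (adjusted p = 0.449). The call of Cd14 over untreated was lost without 6-shogaol plus LPS replicate 2 (0.0659), and that over LPS alone without 6-shogaol plus LPS replicate 1 (0.0666) or 2 (0.128) or LPS replicate 2 (0.0604). The higher members numbered 1 to 3 with 1 library left out. The lower members numbered 1 without replicate 1 and 0 without replicate 2 of 6-shogaol plus LPS, 2 without untreated replicate 1 and 3 without untreated replicate 2. The others called lower were Tlr7, a sensor of single-stranded RNA, and Ticam2, the adaptor TRAM, at -0.44 and -0.46. Tlr7 lost its call without 6-shogaol plus LPS replicate 1 (0.169) or 2 (0.275), untreated replicate 1 (0.228) or LPS replicate 1 (0.0541) or 2 (0.0538), and Ticam2 without 6-shogaol plus LPS replicate 1 (0.195) or 2 (0.163) or untreated replicate 2 (0.0748).

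Of 16 tested enzymes that make inflammatory metabolites (20 listed), 7 were higher than in untreated cells and none lower, or 2 lower without untreated replicate 2, and LPS alone gave 8 higher and 1 lower. Acod1, which makes itaconate, had 857 and 953 CPM with 6-shogaol and LPS, 1203 and 1153 with LPS alone, and 99.6 and 85.9 in untreated cells. Cybb, the catalytic subunit of the phagocyte NADPH oxidase, had 958 and 913 CPM with 6-shogaol and LPS, 1058 and 1060 with LPS alone, and 142 and 172 in untreated cells. In both, the 6-shogaol pair lies below the LPS pair and far above the untreated pair. The log2 fold changes were 3.29 (SE 0.13, adjusted p = 1.30e-10) and 2.58 (SE 0.12, adjusted p = 1.17e-09), and the differences from LPS alone, which did not pass, were -0.38 (95% interval -0.63 to -0.13, adjusted p = 0.238) and -0.18 (-0.42 to 0.06, adjusted p = 0.571). Nos2, the inducible nitric oxide synthase, had 116 and 147 CPM with 6-shogaol and LPS, 197 and 186 with LPS alone, and 37.7 and 50.1 in untreated cells. Its difference from LPS, -0.54, had an interval of -0.96 to -0.13 and an adjusted p of 0.335, beside a rise over untreated of 1.58 (adjusted p = 1.86e-04). Of the list, 2 prostaglandin enzymes were called lower than with LPS alone. Ptgs2, cyclooxygenase of the inducible kind, had 52.8 and 55.0 CPM with 6-shogaol and LPS, 84.7 and 81.9 with LPS alone and 31.1 and 25.9 in untreated cells. Ptges, the prostaglandin E synthase downstream of it, had 19.6 and 18.8 CPM with 6-shogaol and LPS, 31.7 and 30.6 with LPS alone, and 2.98 and 3.12 in untreated cells. They rose over untreated by 0.92 and 2.65 (adjusted p = 3.03e-05 and 4.52e-09) and stood at -0.63 and -0.70 relative to LPS alone (adjusted p = 0.00575 and 0.00524). Against LPS alone Ptgs2 lost its call without 6-shogaol plus LPS replicate 1 (0.136) or 2 (0.127) or LPS replicate 1 (0.0918) or 2 (0.0737), and Ptges without 6-shogaol plus LPS replicate 1 (0.0761) or 2 (0.18) or LPS replicate 1 (0.0792) or 2 (0.0686). Gch1, which makes the cofactor of nitric oxide synthase, rose by 0.65 (adjusted p = 0.00153).

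**Figure D3:**
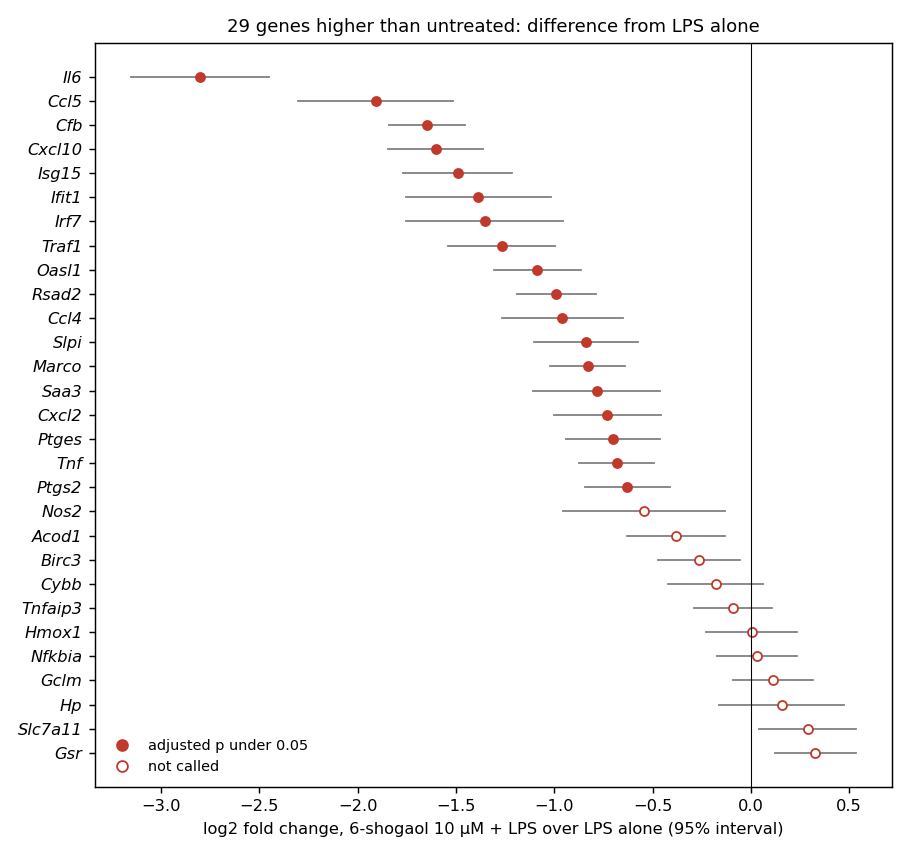
Log2 fold change of 6-shogaol 10 µM plus LPS over LPS alone, with 95% intervals, for 29 genes that were higher than in untreated cells; filled points passed an adjusted p of 0.05 in that comparison. Il6 is lowest at -2.80, 18 genes from Il6 to Ptgs2 are filled, and Cybb, Tnfaip3, Hmox1, Nfkbia, Gclm and Hp have intervals that include 0. The 29 genes were picked by hand from the lists, so their filled share does not describe all genes that rose. Of all 747 genes higher than in untreated cells, 54 were also lower than with LPS alone.

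Acute-phase and scavenger genes split. LPS alone gave 9 higher and 4 lower of 17 tested (20 listed). With 6-shogaol and LPS, 7 were higher and 3 lower than in untreated cells. With 1 library left out 7 were higher, and 2 were lower, or 5 without untreated replicate 2. Saa3, serum amyloid A (ENSMUSG00000040026, chromosome 7, 46711998 to 46715700), had 8782 and 7100 CPM with 6-shogaol and LPS, 13290 and 14080 with LPS alone, and 549.8 and 429 in untreated cells. Its groups are apart, with log2 fold changes of 4.02 over untreated (SE 0.17, adjusted p = 3.84e-10) and -0.79 over LPS alone (adjusted p = 0.0228). The call over LPS alone was lost without 6-shogaol plus LPS replicate 1 (0.068) or 2 (0.434) or LPS replicate 1 (0.115) or 2 (0.262). Haptoglobin, Hp, which binds free haemoglobin, had 1256 and 1049 CPM with 6-shogaol and LPS, 1084 and 985 with LPS alone, and 87.6 and 98.4 in untreated cells. Here the 2 LPS groups overlap, the log2 fold change over untreated was 3.63 (SE 0.17, adjusted p = 9.68e-10) and the difference from LPS alone was 0.16 (95% interval -0.16 to 0.47). Slpi, a protease inhibitor, Marco, a scavenger receptor for bacteria, and Clec4e, the mycobacterial cord factor receptor Mincle, rose by 2.7, 2.64 and 2.51 (adjusted p = 1.84e-09, 8.46e-11 and 2.50e-08) and were all lower than with LPS alone (-0.84, -0.83 and -0.97). Against LPS alone Slpi lost its call without 6-shogaol plus LPS replicate 2 (0.131), and Clec4e without 6-shogaol plus LPS replicate 1 (0.0543) or 2 (0.127). Lcn2, which withholds iron from bacteria, had 1215 and 1232 CPM against 839.9 and 529 CPM in untreated cells and rose by 0.84 (adjusted p = 0.00467). Its difference from LPS alone was -0.85 (adjusted p = 0.0273), a call lost without 6-shogaol plus LPS replicate 1 (0.315) or 2 (0.306) or LPS replicate 1 (0.241) or 2 (0.166). The genes that fell are Fc receptors and a lipid scavenger. Fcgr3, the activating receptor CD16, had 119.6 and 122 CPM with 6-shogaol and LPS, 124 and 118 with LPS alone, and 308 and 262 in untreated cells, a log2 fold change of -1.24 (adjusted p = 1.19e-06). Fcgr1, the high-affinity IgG receptor, fell by 0.73 (adjusted p = 2.67e-04), and Cd36, the lipid scavenger, stood at -0.63 (adjusted p = 0.0356), a call lost without 6-shogaol plus LPS replicate 1 (0.0816) or 2 (0.337), untreated replicate 1 (0.329) or LPS replicate 1 (0.0534) or 2 (0.0531). The difference of Fcgr3 from LPS alone was 0.00 (95% interval -0.23 to 0.22).

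Complement genes held the largest increase and the largest decrease of the named genes. Cfb, factor B of the alternative pathway (ENSMUSG00000090231, chromosome 17, 34856374 to 34862518), had 88.1 and 80.5 CPM with 6-shogaol and LPS, 261 and 267 with LPS alone, and 0.308 and 0.233 in untreated cells. All 3 groups are apart, and the log2 fold change was 8.26 over untreated (SE 0.17, adjusted p = 9.90e-14) and -1.65 over LPS alone (adjusted p = 1.73e-07). C1s1, a protease of the classical pathway, rose by 1.12 (adjusted p = 6.29e-04). C1qc, a chain of the classical recognition molecule C1q (ENSMUSG00000036896, chromosome 4, 136889804 to 136893065), had 1.64 and 1.31 CPM with 6-shogaol and LPS, 1.76 and 2.05 with LPS alone, and 11.6 and 9.49 in untreated cells. Its LPS groups lie together under untreated, with a fold change on the log2 scale of -2.84 (SE 0.23, adjusted p = 7.07e-07). C1qb fell with it, by 1.44 (adjusted p = 1.39e-04), and so did C3ar1, the receptor for the C3a fragment, by 0.81 (adjusted p = 0.00126). In all, 2 of 16 tested genes (18 listed) were higher and 3 lower, and with 1 library left out 2 to 4 were higher and 3 lower. C3 was not called (-0.14). LPS alone gave 4 higher and 5 lower of the 16.

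On the cell surface, LPS alone gave 9 higher and 1 lower of 16 co-stimulatory and adhesion genes (19 listed). Tested directly, 2 (12.5%) were lower with 6-shogaol than with LPS alone, against 0.575% of all tested genes. Neither of these was called higher than in untreated cells. With 6-shogaol and LPS, 7 of the 16 were higher than in untreated cells and 2 were lower. With 1 library left out 5 to 8 were higher, and 0 were lower, or 3 without untreated replicate 2. Cd38, an NAD hydrolase, had 208 and 219 CPM with 6-shogaol and LPS, 216 and 203 with LPS alone, and 76.6 and 73.0 in untreated cells, with the LPS groups overlapping and a log2 fold change over untreated of 1.51 (adjusted p = 2.50e-08). Icosl, ligand of the T cell receptor ICOS, and Tnfrsf1b, the second TNF receptor, rose by 1.49 and 1.03 (adjusted p = 1.96e-05 and 7.39e-05). Cd274, the checkpoint ligand PD-L1, rose by 0.82 (adjusted p = 2.34e-04) and the adhesion molecule Icam1 by 0.80 (adjusted p = 8.06e-05). Cd86 and Cd48 were the 2 called lower than in untreated cells (-0.57 and -0.65). Cd86 lost its call without 6-shogaol plus LPS replicate 1 (0.214) or 2 (0.056) or untreated replicate 1 (0.175), and Cd48 without 6-shogaol plus LPS replicate 1 (0.273) or 2 (0.117), untreated replicate 1 (0.331) or LPS replicate 1 (0.0574) or 2 (0.0586).

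Some feedback genes of cytokine signalling and mRNA decay rose. Socs3, which blocks IL-6 family receptors, had 56.5 and 52.1 CPM with 6-shogaol and LPS, 54.4 and 57.8 with LPS alone, and 20.6 and 23.9 in untreated cells, a log2 fold change over untreated of 1.29 (adjusted p = 4.87e-06). Csf1r, the receptor on which microglia depend, rose by 0.70 (adjusted p = 0.00354), and Csf2rb by 0.66 (adjusted p = 7.67e-04). Of the 17 tested genes (19 listed) in the list of SOCS factors and cytokine receptors, 6 were higher. That count was 3 without either 6-shogaol plus LPS replicate or without untreated replicate 1, and 4 without untreated replicate 2. Zc3h12c, of the regnase family of RNA-decay enzymes, rose by 0.92 (adjusted p = 4.87e-06), 1 of 3 higher among 10 AU-rich decay genes. That count fell without either 6-shogaol plus LPS replicate or without untreated replicate 1, and rose without untreated replicate 2.

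**Figure D4:**
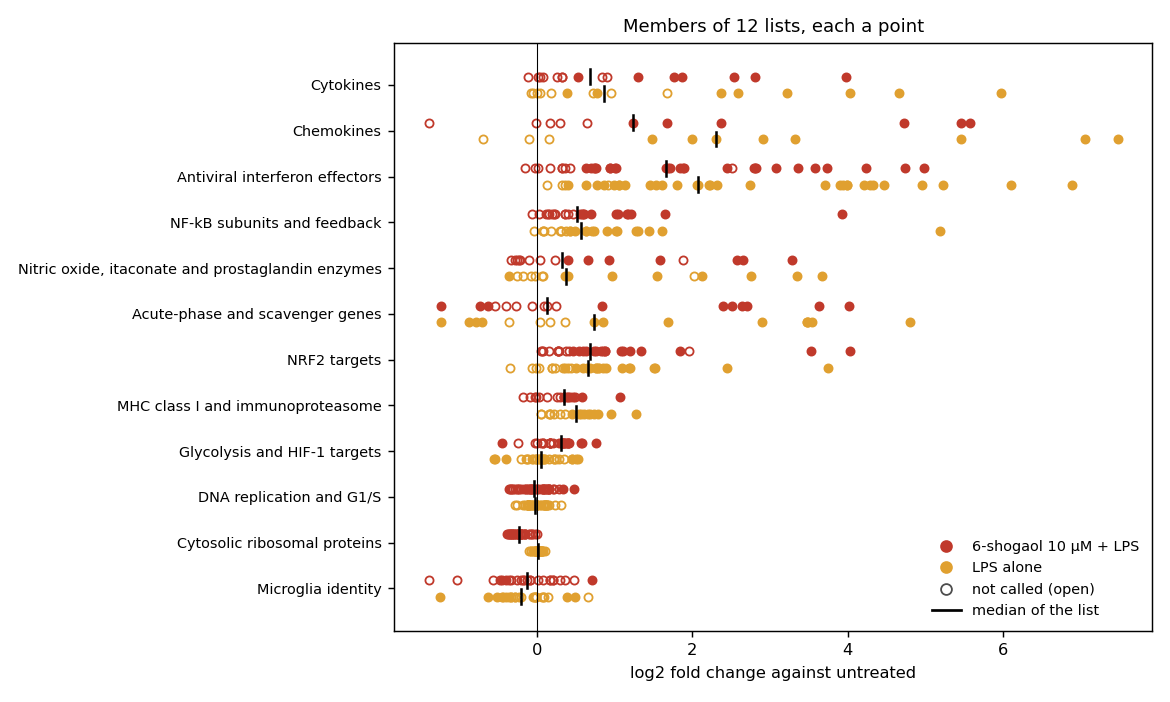
Log2 fold change against untreated cells for each tested member of 12 gene lists, with 6-shogaol 10 µM plus LPS above and LPS alone below in each row; filled points passed an adjusted p of 0.05 and a bar marks the median. Both comparisons share the untreated libraries. The median of antiviral effectors is 1.66 with 6-shogaol and LPS and 2.08 with LPS alone, and that of NRF2 targets is 0.68 and 0.66.

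Antioxidant genes under NRF2 were the second list by share of called members. Of 28 genes, 17 were higher than in untreated cells and none lower, with a median log2 fold change of 0.68. LPS alone also raised 17 (median 0.66), and none of the 28 differed between the LPS groups at an adjusted p under 0.05 by edgeR. Slc7a11, the cystine and glutamate exchanger that feeds glutathione synthesis (ENSMUSG00000027737, chromosome 3, 49892526 to 50443614), had 90.2 and 78.8 CPM with 6-shogaol and LPS, 62.7 and 75.5 with LPS alone, and 4.77 and 5.54 in untreated cells. Both LPS groups are far above untreated, with the 6-shogaol pair the higher of the 2, and the log2 fold change was 4.03 over untreated (SE 0.14, adjusted p = 6.63e-11) and 0.29 over LPS alone (95% interval 0.04 to 0.54, adjusted p = 0.379). Gsr, glutathione reductase, had 113 and 112 CPM with 6-shogaol and LPS, 88.0 and 90.9 with LPS alone, and 30.0 and 32.7 in untreated cells. Its groups do not overlap, with 1.84 over untreated (adjusted p = 7.16e-09) and 0.33 over LPS alone (95% interval 0.12 to 0.53, adjusted p = 0.198). Hmox1, haem oxygenase, had 524 and 527 CPM with 6-shogaol and LPS, 542 and 507 with LPS alone, and 226 and 232 in untreated cells. The log2 fold change was 1.2 over untreated (SE 0.11, adjusted p = 2.56e-06) and 0.00 over LPS alone (95% interval -0.23 to 0.23).

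Among further NRF2 targets were glutathione, thioredoxin and NADPH enzymes. Gclm, the modifier subunit of the first glutathione enzyme, rose by 0.88 (adjusted p = 2.37e-05), while the catalytic subunit Gclc was not called (0.08). Gsta3, a glutathione transferase, had 4.28 and 2.66 CPM against 0.308 and 0.279 CPM in untreated cells (log2 fold change 3.52, adjusted p = 8.91e-05). Txnrd1 and Srxn1, which reduce thioredoxin and overoxidised peroxiredoxin, rose by 0.85 and 0.83 (adjusted p = 4.28e-05 and 2.67e-05). Among the enzymes that supply NADPH, Me1 rose by 1.34 (adjusted p = 9.42e-07), while Pgd and G6pdx stood at 0.54 and 0.46 (adjusted p = 0.00775 and 0.00873), calls lost without 6-shogaol plus LPS replicate 2 (0.0524) and without 6-shogaol plus LPS replicate 1 (0.071). Catalase, Cat, rose by 1.08 and the haem transporter Slc48a1 by 1.11 (adjusted p = 5.72e-07 and 7.78e-06). Nqo1, a standard NRF2 reporter, had 0.411 and 0.387 CPM with 6-shogaol and LPS and 0.0513 and 0.14 CPM in untreated cells and was not called (adjusted p = 0.0776). With 1 library left out, 14 to 17 of the list were higher, and 13 in all 5 fits.

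The called share was 0% of ER chaperones, 11.1% of heat shock chaperones and 6.9% of ATF4 targets, against 8.76% of all tested genes. It was 32.1% of immediate early genes, 29.4% of p53 targets, 5.0% of replication genes and 3.33% of mitosis genes. With LPS alone these 4 shares were 39.3%, 29.4%, 0% and 0%. The median log2 fold change of p53 targets was -0.08 with 6-shogaol and LPS, and 1 of them was lower than with LPS alone. No ER chaperone of 21 was called by edgeR with all libraries, while 1 was higher and 2 were lower without untreated replicate 2. With all libraries their log2 fold changes ran from -0.28 (Xbp1) to 0.24 (Atf6). Of 18 heat shock chaperones (19 listed) 1 was higher and 1 lower, Hspa4l at 0.46 and Dnaja1 at -0.59. Hspa4l lost its call without 6-shogaol plus LPS replicate 1 (0.0593) or 2 (0.114) or untreated replicate 1 (0.0903), and Dnaja1 without 6-shogaol plus LPS replicate 1 (0.0933) or 2 (0.213) or untreated replicate 1 (0.223), while 3 of the list were lower without untreated replicate 2. Hspa1a, at 0.46, was not called. Of 29 ATF4 targets (30 listed) 2 were lower, Ddit3, the factor CHOP (-0.75, adjusted p = 0.00308), and its own target Trib3 (-0.54, adjusted p = 0.0469), and Atf4 was not called (-0.17). Ddit3 lost its call without 6-shogaol plus LPS replicate 1 (0.0616), and Trib3 without 6-shogaol plus LPS replicate 1 (0.18) or 2 (0.308), untreated replicate 1 (0.142) or 2 (0.22) or LPS replicate 1 (0.0661) or 2 (0.0661), while 2 of the list were higher without untreated replicate 2. Immediate early genes gave 7 higher and 2 lower of 28 (31 listed), with Maff, a small partner of NRF2 and BACH1, at 27.3 and 23.9 CPM against 7.49 and 9.91 CPM in untreated cells (log2 fold change 1.55, adjusted p = 4.42e-06) and Fos at 2.70 and 2.66 CPM against 6.47 and 5.63 CPM (-1.17, adjusted p = 9.72e-04). The higher numbered 5 and 3 without 6-shogaol plus LPS replicates 1 and 2, and 4 and 8 without untreated replicates 1 and 2. Of 17 p53 targets (20 listed) 4 were higher, led by Gdf15 (1.45, adjusted p = 3.57e-06) and Plk2 (1.16, adjusted p = 9.69e-07). Cdkn1a, the cell cycle inhibitor p21, was the 1 lower (-0.48), and its call was lost without 6-shogaol plus LPS replicate 1 (0.215) or 2 (0.196) or untreated replicate 2 (0.194). Of 40 replication and 30 mitosis genes, 2 and 1 were higher, and no call of these 3 was kept in all 5 fits. Without untreated replicate 2, 2 replication genes were higher and 5 lower, and 2 mitosis genes were higher and 1 lower.

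Of 13 genes for apolipoproteins and lipid efflux, 1 was higher and 3 were lower than in untreated cells, and the lower numbered 2 or 3 with 1 library left out. Apoe, the main lipid carrier of microglia (ENSMUSG00000002985, chromosome 7, 19696109 to 19699188), had 214 and 212 CPM with 6-shogaol and LPS, 184 and 184 with LPS alone, and 439 and 413 in untreated cells. It lay at less than the untreated level in both LPS groups, with a difference of -1.0 on the log2 scale (SE 0.10, adjusted p = 8.41e-06), and its difference from LPS alone was 0.21 (95% interval 0.00 to 0.43). Apoc1, encoded beside Apoe, had 1.23 and 1.16 CPM with 6-shogaol and LPS against 5.75 and 7.12 CPM in untreated cells (-2.42, adjusted p = 3.85e-05). Abca1, the cholesterol exporter, was higher (0.58, adjusted p = 0.00663), a call lost without 6-shogaol plus LPS replicate 2 (0.0834) or untreated replicate 1 (0.0587). Insig1, which restrains sterol synthesis, rose by 1.34 (adjusted p = 4.05e-07), 1 of 4 higher among 25 sterol and fatty acid genes (27 listed). That count was 3 and 1 without 6-shogaol plus LPS replicates 1 and 2, and 2 and 5 without untreated replicates 1 and 2. Of 31 lysosomal genes, 2 were higher and 5 lower, and the lower numbered 1 and 0 without 6-shogaol plus LPS replicates 1 and 2, and 2 and 6 without untreated replicates 1 and 2. The higher numbered 1 in the first 3 of these fits and 5 in the last. Mitf, a lysosomal regulator, rose by 0.58 (adjusted p = 0.00147), and Atp6v0d2, a subunit of the proton pump, had 1.82 and 0.968 CPM against 4.62 and 3.91 CPM in untreated cells (-1.63, adjusted p = 0.00241), a call lost without 6-shogaol plus LPS replicate 2 (0.0736).

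Of 25 tested microglial identity genes (29 listed) Csf1r was higher and Tyrobp (-0.46) and Cd33 (-0.40) were lower, and Tyrobp lost its call without 6-shogaol plus LPS replicate 1 (0.0917) or 2 (0.303) or untreated replicate 1 (0.138) and Cd33 without 6-shogaol plus LPS replicate 1 (0.276) or 2 (0.105) or untreated replicate 1 (0.105). Without untreated replicate 2 the list had 3 higher and 4 lower, and LPS alone gave 2 higher and 6 lower. Trem2, the lipid-sensing receptor that signals through TYROBP, had 49.1 and 47.5 CPM with 6-shogaol and LPS, 43.8 and 36.3 with LPS alone, and 64.2 and 59.8 in untreated cells. The 6-shogaol pair lies between the others, and neither difference passed: the log2 fold change was -0.36 over untreated (adjusted p = 0.0625) and 0.27 over LPS alone (adjusted p = 0.413). LPS alone changed it by -0.63 (adjusted p = 0.00148). Because these are bulk samples, fewer cells with a transcript and less of it per cell cannot be told apart, for decreases such as those of Apoe and C1qc.

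Outside the lists, among called genes of at least 5 CPM whose groups did not overlap, the largest decreases were those of F5, coagulation factor V (-2.48, 0.938 and 0.871 CPM against 4.77 and 5.35 CPM in untreated cells), and Lsp1, an actin-binding protein of leukocytes (-2.04, 3.58 and 3.92 CPM against 15.1 and 15.8 CPM), with adjusted p of 4.89e-05 and 5.40e-07. Ifitm6, Hey1, Gpr35, Olfm4, Tnni2 and Pax3 completed the 12 largest decreases, between -1.63 and -1.25, and the call of Tnni2 was lost without 6-shogaol plus LPS replicate 1 (0.0917). Among the largest increases outside the lists were Kcnf1, a potassium channel subunit (3.93, 8.50 and 8.03 CPM against 0.411 and 0.651 CPM), Zfp811 (3.45) and Mmp9, a gelatinase that cuts extracellular matrix (2.77), with adjusted p from 5.61e-08 to 4.48e-07.

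A handful of genes lay outside the range between untreated and LPS cells. Besides Cd14, Krt23, a keratin, was lower than both, with 15.1 and 15.0 CPM with 6-shogaol and LPS, 24.0 and 26.8 with LPS alone, and 33.8 and 27.0 in untreated cells (-1.01 over untreated, adjusted p = 1.09e-04; -0.75 over LPS alone, adjusted p = 0.0112). Its call over LPS alone was lost without 6-shogaol plus LPS replicate 1 (0.138) or 2 (0.196) or LPS replicate 2 (0.231). Pim2, a serine/threonine kinase that promotes survival, was higher than both, with 31.6 and 32.4 CPM with 6-shogaol and LPS, 20.5 and 18.9 with LPS alone, and 13.2 and 16.6 in untreated cells. Gbe1, the branching enzyme of glycogen synthesis, was likewise higher, with 44.1 and 43.1 CPM with 6-shogaol and LPS, 31.2 and 28.4 with LPS alone, and 20.5 and 20.1 in untreated cells. For both, the 6-shogaol pair lies above the other 4 libraries, by 1.10 and 1.10 over untreated (adjusted p = 4.06e-05 and 3.01e-06) and by 0.70 and 0.55 over LPS alone (adjusted p = 0.0149 and 0.0153). Over LPS alone Pim2 lost its call without 6-shogaol plus LPS replicate 1 (0.132) or 2 (0.201) or LPS replicate 1 (0.0958) or 2 (0.297), and Gbe1 without 6-shogaol plus LPS replicate 1 (0.185) or 2 (0.183) or LPS replicate 1 (0.0805) or 2 (0.335).

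Calls in housekeeping metabolism depended on which of the compared libraries were in the fit. With all libraries, glycolysis and HIF-1 targets gave 6 higher and 1 lower of 29 (32 listed), led by the glucose transporter Slc2a1 (206 and 224 CPM against 109.8 and 145 CPM in untreated cells, 0.76, adjusted p = 0.00488). Without untreated replicate 2 the list had 14 higher, and without untreated replicate 1 or 6-shogaol plus LPS replicates 1 and 2 it had 1, 2 and 1. Slc2a1 itself lost its call without 6-shogaol plus LPS replicate 2 (0.0558) or untreated replicate 1 (0.0634), while P4ha1, a collagen hydroxylase and HIF-1 target, rose by 0.57 and was the 1 member higher in all 5 fits. Cytosolic ribosomal protein genes had a median of -0.24, mitochondrially encoded mRNAs -0.45, nuclear-encoded respiratory chain genes -0.18 and proteasome subunits -0.19, with 0 of 32, 1 of 13, 1 of 30 and 2 of 31 called lower. Without untreated replicate 2 those counts were 12, 5, 12 and 12, and without untreated replicate 1 they were 0, 0, 0 and 0. Leaving out either 6-shogaol plus LPS library also left no more members of these lists called lower than with all libraries. With mean fragment length, which also differs between the untreated libraries, as a covariate in the fit of all libraries, the lower counts were 0, 1, 0 and 1, and 5 glycolysis and HIF-1 targets were higher. In the same order, the medians of LPS alone over untreated were 0.01, -0.35, -0.07 and -0.04. Those of 6-shogaol plus LPS over LPS alone were -0.25, -0.09, -0.16 and -0.16. Glycolysis and HIF-1 targets had a median of 0.305 with 6-shogaol and LPS. LPS alone gave 0.05, with 3 higher and 3 lower. No member of these lists was called between the 2 LPS groups, and the source of the shifts was not tested.

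**Figure D5:**
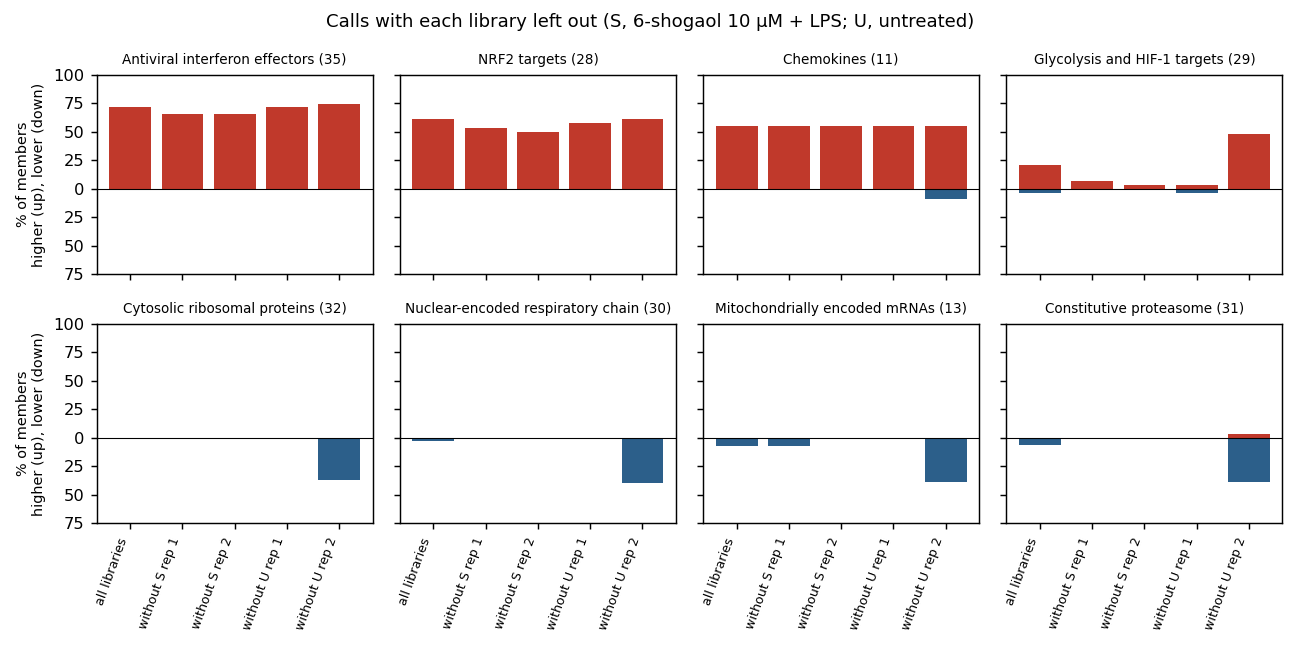
Share of tested members of 8 gene lists called higher (up) or lower (down) with 6-shogaol 10 µM plus LPS than in untreated cells, in percent, with all libraries and with each of the 4 compared libraries left out (S, 6-shogaol 10 µM plus LPS; U, untreated). Across the 5 fits 23 to 26 antiviral effectors, 14 to 17 NRF2 targets and 6 chemokines are higher, while the metabolic lists gain most calls without untreated replicate 2, such as 14 of 29 glycolysis and HIF-1 targets.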

How the data were processed

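The series holds 12 RNA-seq libraries of BV2 cells, 2 for each of 6 groups. Per the file headers, the authors deposited an RSEM table per library with expected counts, TPM values (corrected for gene length) and gene and effective length, and a table of normalized expression signal for the series, whose normalization is not given in the sources used here. Per the submitters' processing notes, the tools DESeq2 1.44.0, RSEM 1.3.3, STAR 2.7.11b, Trimmomatic 0.39, R 4.4.2 and FastQC 0.12.1 and the builds mm10 and GRCm38 were used, with no role or order stated. The annotation release is not given in the sources used here. Symbols and positions came from GENCODE M21, in which 97.8% of identifiers matched. RSEM divides reads that fit several genes, so 7.03% of expected counts were not whole, among them values of Slc7a11, Il1a, Fcgr3, C1s1, Tapbp, Csf1r, Me1, Gclm, Icam1 and F5, whose levels are uncertain to that extent.

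Expected counts were rounded, filtered with filterByExpr and scaled by TMM. The 6 group means over all 12 libraries were fitted with edgeR 4.0.16 (robust quasi-likelihood F test, R 4.3.3), leaving 6 residual degrees of freedom. The fit takes the spread of a gene as the same in every group, although the untreated libraries stood further apart. P-values were adjusted by Benjamini-Hochberg over the 12705 genes tested, and genes were called at an adjusted p under 0.05. CPM values are counts scaled to a common library size after TMM. limma 3.58.1 and DESeq2 1.42.0 were alternatives. The fit was also run on simulated data with the same spread in every group, which does not cover the wider spread of the untreated libraries. The median half-width of the 95% interval was 0.292 on the log2 scale, and replicates differed by more than counting noise, with a chi-square per gene of 6.11 to 35.3. Counting intervals cover counting error only.

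Members and lists were chosen with earlier results of these data known. Genes named were the 20 largest increases and 12 largest decreases among called genes of at least 5 CPM whose groups did not overlap, up to 4 called members of each list by size, up to 2 that went against their list's majority, an anchor set, and up to 8 genes beyond both LPS and untreated levels and 10 between them. A further 45 list members were named after their values were seen. Some genes that the rule names are not reported here.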

Additional observations from a re-analysis of the deposited data

How the results depend on the processing

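No called gene that is named reversed under any of 17 alternatives. The stricter adjusted p and the fold requirement keep the main fit's fold changes, so no gene could reverse under them. Of 155 calls of named genes over untreated, 88 (with an absolute log2 fold change of at least 1 required) to 155 (with the replicate block) were kept. Against untreated, the 1113 calls (747 higher, 366 lower) became 632 (494 and 138) in a fit of only the compared groups, 572 (453 and 119) at an adjusted p under 0.01 and 299 (237 and 62) with an absolute log2 fold change of at least 1. The lower calls became 708 with no count filter and 176 with limma on the authors' normalized table. Leaving out 1 library gave 499 to 2179 calls, 426 to 1276 higher and 73 to 903 lower. For LPS alone, the 1501 calls became 870 at an adjusted p under 0.01 (208 lower) and 449 (370 and 79) with the fold requirement, the lower calls became 308 on the authors' table, and leaving out 1 library gave 768 to 1602 calls, 597 to 1053 higher and 171 to 649 lower. Against LPS alone, the 81 calls became 311 (86 higher, 225 lower) with no count filter, 48 (3 and 45) with fragment length as a covariate, 34 (3 and 31) on the authors' table, 47 (2 and 45) at an adjusted p under 0.01 and 34 (0 and 34) with the fold requirement. DESeq2 gave 20 higher, and leaving out 1 library gave 18 to 175 calls, 0 to 40 higher and 18 to 135 lower. The causes were not tested. Leaving out an LPS library, and counting genes called in all 5 fits, were chosen after seeing the data.

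The replicate block gave 1146 calls against untreated, 1541 for LPS alone and 80 against LPS alone. Same-numbered libraries' deviations correlated at 0.0735 (6-shogaol plus LPS with untreated), -0.0541 (6-shogaol plus LPS with LPS) and -0.0329 (LPS with untreated). With 2 libraries a group, these values cannot decide whether same-numbered libraries were paired, and the labels do not state it. The chi-square per gene between replicates was 6.11 with 6-shogaol and LPS, 8.89 with LPS alone and 35.3 in untreated cells, so the spread between libraries was above counting error, and depth alone does not set the intervals.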
